A study of Mus musculus with 10 samples.

Results

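The genes described here encode RNA polymerase I, II and III subunits and the basal factors that place polymerases I and III on their promoters. They were chosen by symbol: 28 genes whose name is Polr1, Polr2 or Polr3 with a letter suffix, and 9 initiation factor genes named outright (Rrn3, Ubtf, Taf1a, Taf1b, Taf1c, Taf1d, Brf1, Brf2 and Bdp1), together 37 of the 24391 genes in the files. Expression was measured by poly(A)-selected RNA-seq in 5 lines derived from mouse small cell lung cancer (SCLC), a neuroendocrine lung tumour; they are called G4314, G9351, G9488, G9529 and G9577. The MYCN on library of each was grown with doxycycline, and the MYCN off library came from cells kept off the drug for 4 days. All libraries share the genotype Rb;p53 with TRE-MYCN, a MYCN transgene under a doxycycline-responsive promoter, and LSL-RTTA, a stop-cassette allele of the doxycycline-dependent activator. The labels name no Cre driver and no culture that received doxycycline while lacking the transgene, and what the drug does by itself cannot be told apart from what MYCN does.

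Eukaryotic cells divide transcription among 3 nuclear RNA polymerases. Polymerase I makes the large ribosomal RNA precursor in the nucleolus, polymerase II makes messenger RNA, and polymerase III makes transfer RNA, the smallest ribosomal RNA and other short RNAs. Each enzyme has its own pair of large catalytic subunits, while a set of small subunits is common to all, and polymerases I and III share a further pair of subunits, Polr1c and Polr1d. MYC-family proteins are known as activators of ribosome production, which draws on all 3 enzymes.

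The 5 libraries with MYCN on and the 5 with MYCN off each held between 9586465 and 11960074 counts. Mycn, the targeted gene, ranged from 496 to 977 CPM (a gene's counts relative to the library total, scaled by TMM factors) in the MYCN on libraries, against 27.6 to 189 CPM in the MYCN off libraries, without overlap, but the counts do not separate the transgene from the mouse gene. The line G9577 stood apart from the others. Its 9 neuroendocrine markers summed to 224 CPM (on) and 174 CPM (off), against 3256 to 4033 CPM (on) and 5107 to 6557 CPM (off) in the other lines. All 9 had a count in every library, but in G9577 most of the sum came from Ncam1 and Uchl1. Ncam1 stood there at 99.8 CPM (on) and 124.7 CPM (off), and Uchl1 at 117.9 CPM (on) and 17.25 CPM (off). No other neuroendocrine marker in G9577 exceeded 2.24 CPM (on) or 11.8 CPM (off). The 6 mesenchymal markers summed to 1806 CPM (on) and 5280 CPM (off) in G9577, and to 1.37 to 4.34 CPM (on) and 0.88 to 5.72 CPM (off) elsewhere, where Vim was at 0 in both libraries of G9351. Of the neuroendocrine markers 6 of 9 fell with MYCN on, beside 15.6% of all genes tested. In bulk RNA, a change in the cells present and a change in RNA per cell cannot be told apart. The 5 markers of blood cells and endothelium summed to at most 6.55 CPM in any library. The part of these marker levels in the results below was not tested. Changes without G9577 are given for each member whose values are printed library by library.

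The polymerase genes were higher with MYCN on, and unevenly so among the enzymes. Of the 36 members with enough counts to be tested, 23 rose (adjusted p under 0.05 in edgeR's quasi-likelihood test with the cell line as a block, Benjamini-Hochberg adjustment over 12835 genes), while 15.3% of all genes tested rose. In edgeR 0 members fell, and 0 had an unadjusted p under 0.05 in that direction, as in DESeq2 and limma-voom. Their median log2 change (MYCN on minus MYCN off) was 0.52, or 1.44-fold, beside a median of -0.08 over all genes tested. A higher level with MYCN on in all 5 lines was seen for 27 of the 36 members and for 20.9% of all genes. In 10 members every library with MYCN on was above every library with MYCN off, which was so for 6.35% of all genes. The remaining member, Taf1a, was listed at 0 counts in all 10 libraries and could not be tested. The gene models place it on the contig 1_random, outside the assembled chromosome, so whether the 0 reflects the models or the transcript cannot be told apart.

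The calls rest on the lines to different degrees. Of the 23 members that rose, 10 passed with any 1 line left out, among them Polr1a, Polr1b, Polr1e, Polr1c, Polr1d, Polr2e, Polr2h, Polr3e and Taf1d. Leaving out G9351 left 11 rises, leaving out G4314 12, G9488 16, G9529 17 and G9577 23. Over all genes tested, calls in either direction numbered 3973 with all lines. They numbered 1729 without G9351, 1768 without G4314, 2727 without G9488, 3072 without G9529 and 4493 without G9577. Of the 23 genes, 22 also passed without G9577, Polr2b did not, and Taf1b was called in its place. In 18 of the 23 the largest change was that of G9577. How often this holds over all genes was not counted, so it cannot be called particular to these members.

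**Figure D1:**
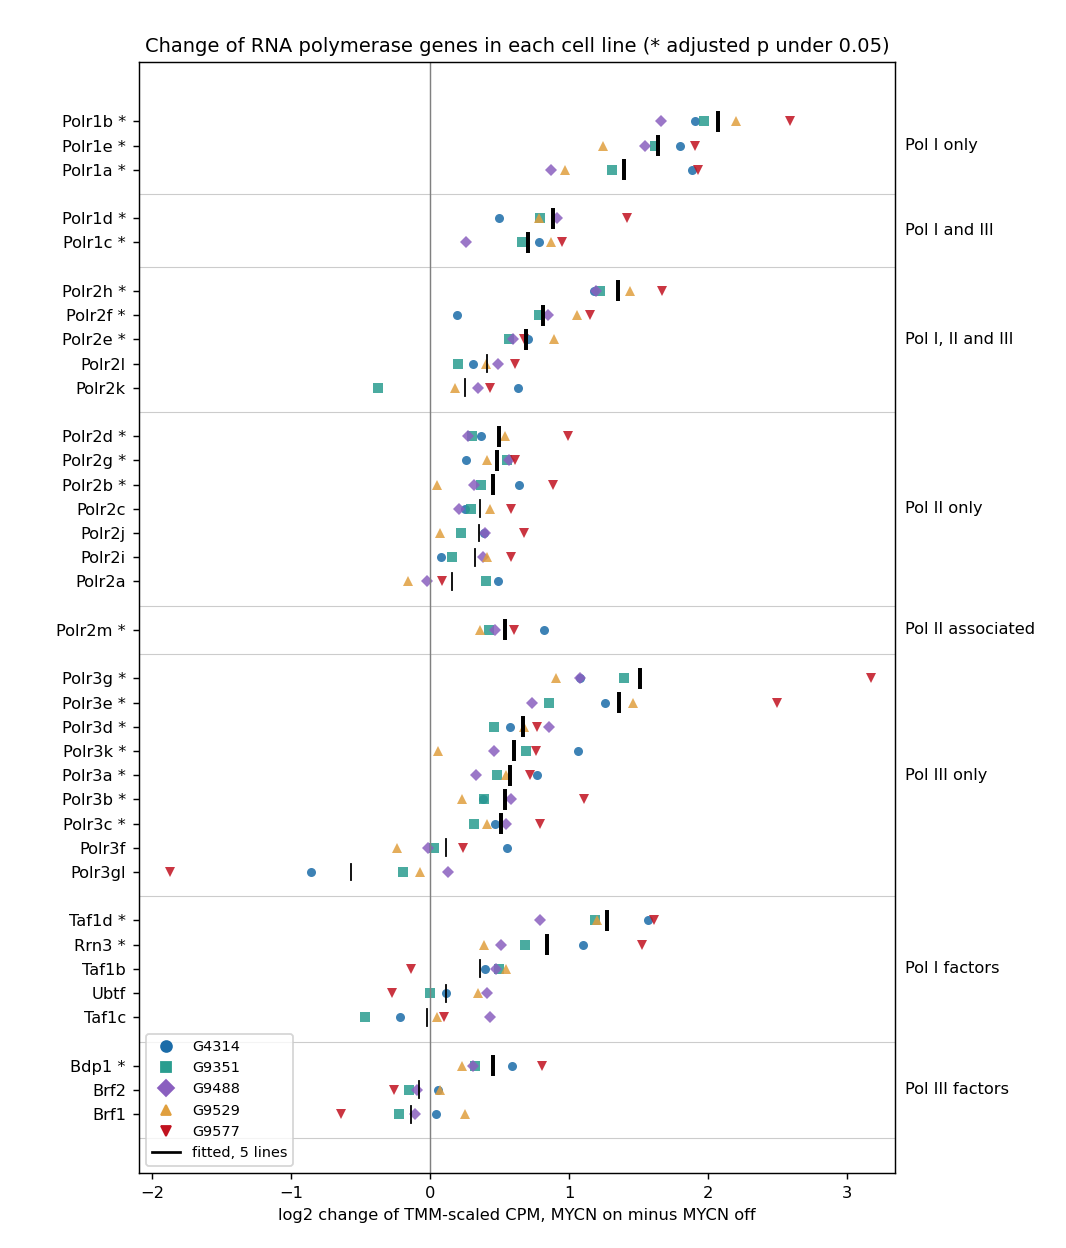
Log2 change of TMM-scaled CPM, MYCN on minus MYCN off, for 35 of the 36 members tested, with 1 marker per cell line and a black bar at the fitted change (thick bar and asterisk: adjusted p under 0.05). Subunits of polymerase I alone lie between 0.87 and 2.59 in single lines and those of polymerase II alone between -0.16 and 0.99, while the widest spread is that of Polr3g, from 0.91 to 3.17.

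Subunits found in polymerase I alone had the highest median change of any group of subunits. All 3 genes of this group in the list, Polr1a, Polr1b and Polr1e, rose between 2.63-fold and 4.21-fold, with a median log2 change of 1.64 (1.58 without G9577). Over all genes tested 15.3% rose. Polr1b (mm9 chromosome 2, 128926732 to 128952331, plus strand) encodes the second catalytic subunit. Polr1b stood at 86.5 CPM in G4314, 88.6 in G9351, 129 in G9488, 118 in G9529 and 182 in G9577 with MYCN on, against 22.9, 22.5, 40.5, 25.4 and 30.1 CPM in the same lines with MYCN off. The 2 conditions did not overlap: the lowest library with MYCN on was above the highest with MYCN off. The fitted log2 change was 2.07 (SE 0.16, adjusted p = 0.00265), the largest of any member, and 3.87-fold without G9577.

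Polr1a (mm9 chromosome 6, 71859047 to 71929355, plus strand) encodes the largest subunit, which holds the catalytic centre with Polr1b. Polr1a stood at 133 CPM in G4314, 115 in G9351, 166 in G9488, 127 in G9529 and 488 in G9577 with MYCN on, against 36, 46.4, 90.4, 64.5 and 128 CPM in the same lines with MYCN off. Each line was higher with MYCN on, but the levels overlapped, with G9577 without MYCN above G9351 and G9529 with it. The rise was 2.63-fold (log2 change 1.39, SE 0.19, adjusted p = 0.00453), and 2.41-fold without G9577. Polr1e encodes a subunit that helps the enzyme bind its initiation factor, and its counts ran from 197 to 737 with MYCN on and from 66 to 163 with MYCN off. It rose 3.12-fold (log2 change 1.64, SE 0.17, adjusted p = 0.003), and 2.99-fold without G9577, with no overlap between the conditions.

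Further subunits carry older symbols in these gene models and so fell outside the naming rule. Twistnb, a stalk subunit of polymerase I, rose 2.42-fold (adjusted p = 0.0045, edgeR), and Cd3eap, the partner of Polr1e, rose 2.19-fold (adjusted p = 0.00489). Crcp, a stalk subunit of polymerase III, rose 1.61-fold (adjusted p = 0.0272), a call lost without each line except G9577 (adjusted p up to 0.09). Znrd1, the RNA cleavage subunit of polymerase I, differed by -0.04 on the log2 scale (SE 0.19, adjusted p = 0.876) and was higher in 4 of 5 lines, with a change of -0.66 in G9577. Crcp and Znrd1 were named after their values were seen.

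The factors that recruit polymerase I split. Of the 5 tested, 2 rose, beside 15.3% of all genes tested, with a median log2 change of 0.36. Rrn3 (mm9 chromosome 16, 13780792 to 13814934, plus strand) bridges the enzyme to the promoter complex and is a target of growth signalling. Rrn3 stood at 281 CPM in G4314, 92.2 in G9351, 172 in G9488, 157 in G9529 and 281 in G9577 with MYCN on, against 131, 57.5, 121, 120.1 and 97.3 CPM in the same lines with MYCN off. It was higher in every line, with overlapping ranges. The fitted rise was 1.79-fold (log2 change 0.84, SE 0.18, adjusted p = 0.0157), or 1.6-fold without G9577. It missed the threshold without G4314 (adjusted p = 0.0696) and without G9351 (0.0532). Taf1d stood at 66.3 CPM in G4314, 66.4 in G9351, 73.9 in G9488, 58.5 in G9529 and 91.8 in G9577 with MYCN on, against 22.2, 29.1, 42.6, 25.4 and 29.9 CPM in the same lines with MYCN off. The conditions did not overlap for Taf1d, a subunit of the promoter selectivity factor SL1, which rose 2.42-fold (log2 change 1.28, SE 0.16, adjusted p = 0.00397), and 2.3-fold without G9577. Taf1d shares 4.94% of its exon bases with Cep295 and 4.12% with 4931406C07Rik, and the counts carry no strand.

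The other SL1 subunits did not pass. Taf1b differed by 0.36 on the log2 scale (SE 0.18, adjusted p = 0.16), and 0.49 without G9577 (adjusted p = 0.0436), the line in which it changed by -0.14. Taf1c, which shares 14.8% of its exon bases with Dnaaf1, differed by -0.02 on the log2 scale (SE 0.18, adjusted p = 0.925). Ubtf encodes UBF, the protein that keeps ribosomal DNA open for polymerase I. Ubtf stood at 240.4 CPM in G4314, 227 in G9351, 280.3 in G9488, 299.7 in G9529 and 398 in G9577 with MYCN on, against 223, 227, 211, 236 and 482 CPM in the same lines with MYCN off. The 2 conditions overlapped almost in full, with G9577 highest in both. Its log2 change was 0.12 (SE 0.13, adjusted p = 0.513), and 0.23 without G9577 (adjusted p = 0.155).

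Subunits that polymerase I shares with the other enzymes had lower median changes than its own. Polr1c and Polr1d, the assembly pair common to polymerases I and III, rose by log2 changes of 0.71 (SE 0.14, adjusted p = 0.0107) and 0.88 (SE 0.16, adjusted p = 0.00916). Polr1d stood at 49.99 CPM in G4314, 57.3 in G9351, 59.3 in G9488, 62.4 in G9529 and 137 in G9577 with MYCN on, against 35.4, 33, 31.4, 36.3 and 51.2 CPM in the same lines with MYCN off. The highest level was that of G9577 with MYCN on, and without that line the rise was 1.69-fold. Of the 5 subunits common to all 3 enzymes, 3 rose, beside 15.3% of all genes tested, with a median log2 change of 0.69. Polr2h stood at 35.6 CPM in G4314, 21.5 in G9351, 30.2 in G9488, 35.5 in G9529 and 50.6 in G9577 with MYCN on, against 15.6, 9.09, 13.1, 12.9 and 15.8 CPM in the same lines with MYCN off. Its conditions did not overlap, and the rise was 2.56-fold (log2 change 1.35, SE 0.16, adjusted p = 0.00368), or 2.43-fold without G9577. Polr2f, a small assembly subunit, rose 1.75-fold (adjusted p = 0.0119, edgeR; 0.0531 without G9351), and Polr2e 1.61-fold (adjusted p = 0.00683). Polr2l and Polr2k differed by 0.41 (adjusted p = 0.15) and 0.25 (adjusted p = 0.447) on the log2 scale. They had the lowest counts of the subunits on average over the 10 libraries, with 41 to 126 and 32 to 104 counts per library.

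Subunits of polymerase II alone had the lowest median change of any group of subunits. Of 7 genes, 3 rose and 0 fell, beside 15.3% and 15.6% of all genes tested. Their median log2 change was 0.36, or 1.28-fold (0.31 without G9577). The smallest p in this group was that of Polr2g, a stalk subunit. Polr2g stood at 105 CPM in G4314, 116 in G9351, 257 in G9488, 118 in G9529 and 114 in G9577 with MYCN on, against 87.4, 78.8, 173, 88.8 and 74.4 CPM in the same lines with MYCN off. The level in G9488 was the highest in both conditions, and the rise was 1.40-fold (log2 change 0.48, SE 0.11, adjusted p = 0.0168), or 1.38-fold without G9577. It was not called without G9351 (adjusted p = 0.0807) or G9488 (0.053). Its stalk partner Polr2d rose 1.41-fold (SE 0.15, adjusted p = 0.0458) without overlap between the conditions, but missed the threshold on omission of any line other than G9577 (adjusted p 0.0743 to 0.124) and with RLE scaling (0.0635), library size alone (0.059) or no filter on low counts (0.0686).

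Polr2b stood at 208 CPM in G4314, 191 in G9351, 214 in G9488, 181 in G9529 and 258 in G9577 with MYCN on, against 133, 148, 172, 175 and 139 CPM in the same lines with MYCN off. Polr2b, the second-largest subunit, did not overlap between the conditions and was higher with MYCN on in all 5 lines, yet the difference in G9529 was small. Its rise of 1.37-fold (log2 change 0.45, SE 0.14, adjusted p = 0.0476) was not called with any line left out (adjusted p between 0.0509 and 0.163), in DESeq2 (0.0505) or with RLE scaling (0.0671), library size alone (0.0615), no filter (0.0625) or a minimum count of 30 (0.0509). Without G9577 it was 1.28-fold. Polr2a stood at 597 CPM in G4314, 441 in G9351, 445 in G9488, 426 in G9529 and 1024 in G9577 with MYCN on, against 425, 333, 452, 477 and 966 CPM in the same lines with MYCN off. Polr2a (mm9 chromosome 11, 69547501 to 69572135, minus strand) encodes the largest subunit, whose repeated tail is phosphorylated during the transcription cycle. Its ranges overlapped, 3 of 5 lines were higher with MYCN on, and the log2 change was 0.16 (SE 0.14, adjusted p = 0.394), or 0.19 without G9577 (adjusted p = 0.334). Polr2c, Polr2i and Polr2j, core subunits, had log2 changes of 0.36, 0.32 and 0.35 (adjusted p = 0.1, 0.151 and 0.0929), each higher in all 5 lines. Polr2c shares 26.2% of its exon bases with Dok4, Polr2i 13.2% with Ovol3 and Polr2b 2.33% with Igfbp7.

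Polr2m stood at 349 CPM in G4314, 312 in G9351, 304 in G9488, 281 in G9529 and 422 in G9577 with MYCN on, against 198, 232, 219.6, 219 and 278 CPM in the same lines with MYCN off. Polr2m, which encodes an associated protein that holds polymerase II inactive rather than a core subunit, rose 1.45-fold without overlap (log2 change 0.54, SE 0.11, adjusted p = 0.0141), and 1.44-fold without G9577. It was not called without G4314 (adjusted p = 0.0623) or G9351 (0.053).

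The median change of the subunits of polymerase III alone stood between those of the other enzymes. The median log2 change of its 10 own subunits was 0.59, or 1.5-fold (0.56 without G9577). Of these 10, 8 rose and 0 fell, beside 15.3% and 15.6% of all genes tested. Leaving out G4314 left 2 of these calls and leaving out G9351 left 3, while 5 were left on omission of either G9488 or G9529 and 8 on omission of G9577. Calls over all genes, in either direction, also dropped from 3973 to 1768 without G4314 and 1729 without G9351. Polr3a stood at 52.4 CPM in G4314, 46.6 in G9351, 27 in G9488, 58.9 in G9529 and 78.7 in G9577 with MYCN on, against 30.7, 33.4, 21.4, 40.3 and 47.9 CPM in the same lines with MYCN off. Each line was higher with MYCN on, by 0.33 to 0.77 on the log2 scale, and the ranges overlapped. The largest subunit, Polr3a, rose 1.49-fold (log2 change 0.57, SE 0.13, adjusted p = 0.0191), a call lost without G4314 (0.0799), G9351 (0.0671) or G9529 (0.0558). Without G9577 the rise was 1.46-fold. Polr3b stood at 99.9 CPM in G4314, 84.7 in G9351, 129.9 in G9488, 79.5 in G9529 and 78.5 in G9577 with MYCN on, against 76.6, 64.8, 86.5, 67.9 and 36.3 CPM in the same lines with MYCN off. For Polr3b, the second catalytic subunit, G9577 had the lowest level of all lines in both conditions. Its rise was 1.45-fold (SE 0.15, adjusted p = 0.037), not called on omission of any line other than G9577 (adjusted p 0.0605 to 0.101) or with RLE scaling (0.0515). Without G9577 the rise was 1.32-fold (adjusted p = 0.0277).

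The accessory subunits of polymerase III varied more. Polr3e stood at 47.5 CPM in G4314, 40.1 in G9351, 60.7 in G9488, 71.2 in G9529 and 81.2 in G9577 with MYCN on, against 19.8, 22, 36.4, 25.8 and 14.2 CPM in the same lines with MYCN off. The conditions did not overlap, and G9577 was the highest line with MYCN on and the lowest with MYCN off. Polr3e, which with Polr3d forms a pair that acts in initiation and termination, rose 2.56-fold (log2 change 1.36, SE 0.27, adjusted p = 0.0114), and 2.13-fold without G9577. Polr3d rose 1.59-fold (adjusted p = 0.0133, edgeR; 0.0501 without G4314) and Polr3k, the RNA cleavage subunit, 1.52-fold (adjusted p = 0.0294; up to 0.103 with a line left out). Polr3c rose 1.42-fold (adjusted p = 0.0234, edgeR; 0.0617 to 0.0809 without each line except G9577), while Polr3f, its partner in the initiation subcomplex, differed by 0.11 on the log2 scale (SE 0.15, adjusted p = 0.584).

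Polr3g and Polr3gl encode alternative forms of the same polymerase III subunit. Each enzyme carries either form, and in human pluripotent cells the Polr3g form is known to prevail and to decline on differentiation. Polr3g stood at 16.9 CPM in G4314, 20.8 in G9351, 21.3 in G9488, 13.9 in G9529 and 31.7 in G9577 with MYCN on, against 7.88, 7.78, 9.97, 7.31 and 3.34 CPM in the same lines with MYCN off. Every library with MYCN on was above every library with MYCN off, and G9577 had both the highest and the lowest value, from 340 and 30 counts. Polr3g (mm9 chromosome 13, 81812836 to 81850012, minus strand) rose 2.85-fold (log2 change 1.51, SE 0.36, adjusted p = 0.0207). The rise was 2.21-fold without G9577 (adjusted p = 0.00449), and the call was lost without G4314 (0.0596) or G9351 (0.0689).

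Polr3gl stood at 16 CPM in G4314, 26.8 in G9351, 32.2 in G9488, 26.1 in G9529 and 25.1 in G9577 with MYCN on, against 29.2, 30.8, 29.5, 27.5 and 92.2 CPM in the same lines with MYCN off. Polr3gl (mm9 chromosome 3, 96381795 to 96398104, minus strand) was lower with MYCN on in 4 of 5 lines, with little difference in G9488, G9529 and G9351 and the widest in G9577. Its log2 change was -0.57 (SE 0.31, adjusted p = 0.186), and -0.24 without G9577 (adjusted p = 0.352). The ratio of Polr3g to Polr3gl, each per kb of exon, was 0.492 in G4314, 0.362 in G9351, 0.308 in G9488, 0.248 in G9529 and 0.589 in G9577 with MYCN on. With MYCN off it was 0.126, 0.118, 0.158, 0.124 and 0.0169 in the same lines. Thus Polr3gl transcript exceeded Polr3g per kb in every library, and the ratio was higher with MYCN on in 5 of 5 lines, by 1.95-fold to 3.91-fold in 4 lines and 34.9-fold in G9577. The mean change of the log2 ratio was 2.10 ± 1.70 (SD, n = 5 lines), with an exact two-sided sign-flip permutation p of 0.0625, the smallest that 5 lines allow (0.0729 after Benjamini-Hochberg adjustment over 7 pairs of genes).

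**Figure D2:**
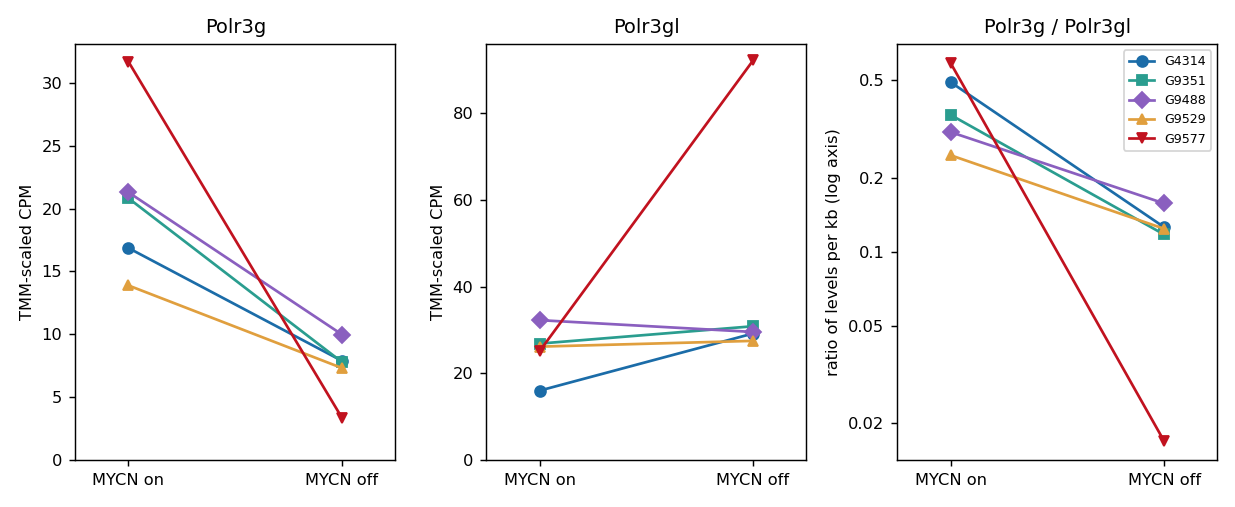
TMM-scaled CPM of Polr3g and of Polr3gl, and the ratio of their levels per kb on a log axis, with MYCN on at the left and MYCN off at the right, with 1 line joining the 2 libraries of each cell line. All 5 lines fall toward MYCN off for Polr3g and for the ratio, while Polr3gl differs most in G9577, with 25.1 CPM on and 92.2 CPM off.

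Of the 3 factors that place polymerase III, 1 rose, Bdp1, the scaffold of the initiation factor TFIIIB. Over all genes tested 15.3% rose, and 3 genes are too few to compare with that share. Bdp1 stood at 104 CPM in G4314, 113 in G9351, 134 in G9488, 98.9 in G9529 and 146 in G9577 with MYCN on, against 69.4, 90.2, 108, 84.3 and 83.7 CPM in the same lines with MYCN off. It was higher in each line, with overlapping ranges, and rose 1.37-fold (log2 change 0.45, SE 0.13, adjusted p = 0.0343), or 1.3-fold without G9577 (adjusted p = 0.037). The call was lost on omission of any line other than G9577 (adjusted p 0.0612 to 0.125) and with no filter on low counts (0.0525). Brf1, the TFIIIB subunit used at transfer RNA genes, and Brf2, which replaces it at genes with external promoters, differed by -0.14 on the log2 scale (SE 0.15, adjusted p = 0.513) and -0.08 (SE 0.17, adjusted p = 0.741). Brf1 stood at 77.3 CPM in G4314, 73.9 in G9351, 82.5 in G9488, 110 in G9529 and 48.9 in G9577 with MYCN on, against 75.3, 86.2, 88.9, 92.3 and 76.6 CPM in the same lines with MYCN off. Brf2 stood at 12.2 CPM in G4314, 12.6 in G9351, 11 in G9488, 17 in G9529 and 19.2 in G9577 with MYCN on, against 11.8, 14.1, 11.7, 16.2 and 23 CPM in the same lines with MYCN off. Both sets of values overlapped between the conditions, with 2 of 5 lines higher with MYCN on for each gene. Without G9577 the log2 change was 0.0013 for Brf1 and -0.02 for Brf2.

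Homologous subunits of the 3 enzymes were then set side by side within each line. The change of Polr1a exceeded that of Polr2a in 5 of 5 lines, by 1.23 ± 0.40 on the log2 scale (SD, n = 5), with an exact two-sided sign-flip p of 0.0625. It exceeded that of Polr3a by 0.83 ± 0.34 in 5 of 5 lines, also with an exact p of 0.0625. The change of Polr3a exceeded that of Polr2a by 0.41 ± 0.26, again in 5 of 5 lines (exact p = 0.0625). Among the second-largest subunits, the change of Polr1b exceeded that of Polr2b by 1.62 ± 0.35 and that of Polr3b by 1.53 ± 0.32, each in 5 of 5 lines (exact p = 0.0625). Polr3b and Polr2b differed by 0.09 ± 0.21, with G4314 going the other way at -0.26 (exact p = 0.438). A p of 0.0625 is the smallest this design can give, so none of these differences can pass 0.05, and after adjustment over the 7 pairs the smallest was 0.0729.

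**Figure D3:**
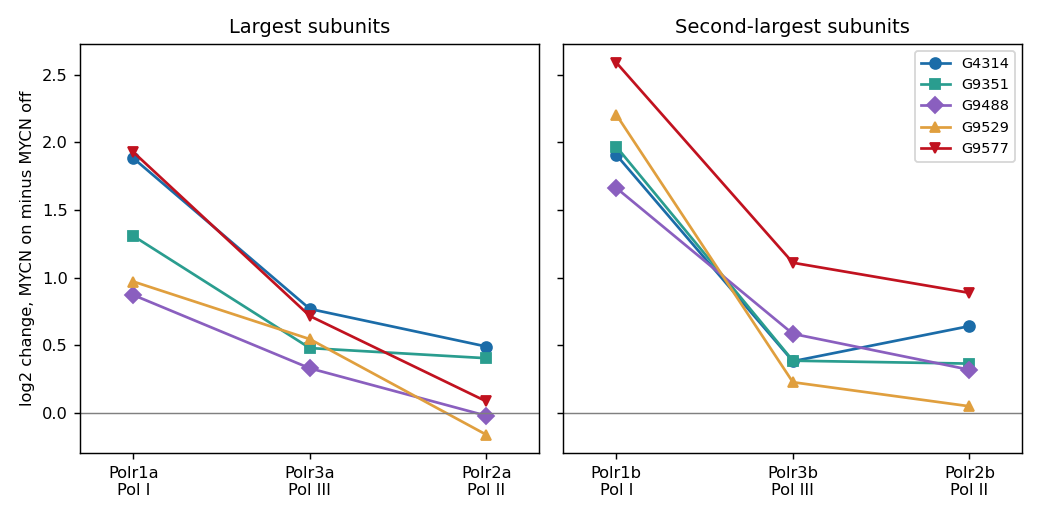
Log2 change, MYCN on minus MYCN off, of the largest subunits (left) and the second-largest subunits (right) of polymerases I, III and II, with 1 line per cell line. In both panels polymerase I is highest in all 5 cell lines, and the largest subunits fall from polymerase I to III to II in each of them.

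Levels per kb of exon (TMM-scaled RPKM) place these changes on the abundance of the transcripts. With MYCN on, the median over 5 lines was 29.5 for Polr1b, 21.8 for Polr1a and 10.6 for Polr1e, and with MYCN off it was 6.37, 10.6 and 3.02. Polr2a was at 66.1 with MYCN on and 67.1 with MYCN off, and Polr2b at 54.5 and 38.9. Polr3a and Polr3b were at 11.2 and 17.5 with MYCN on and at 7.13 and 14.1 with MYCN off. Polymerase II transcripts were thus the most abundant of the large subunits in both conditions. In order of median level, Polr1b moved past Polr3a and Polr3b with MYCN on, and Polr1a moved past Polr3b. The highest median of any subunit was that of Polr2f, 197.8 with MYCN on and 103 with MYCN off, and the lowest with MYCN off was that of Polr3g, 2.54, against 6.81 with MYCN on.

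**Figure D4:**
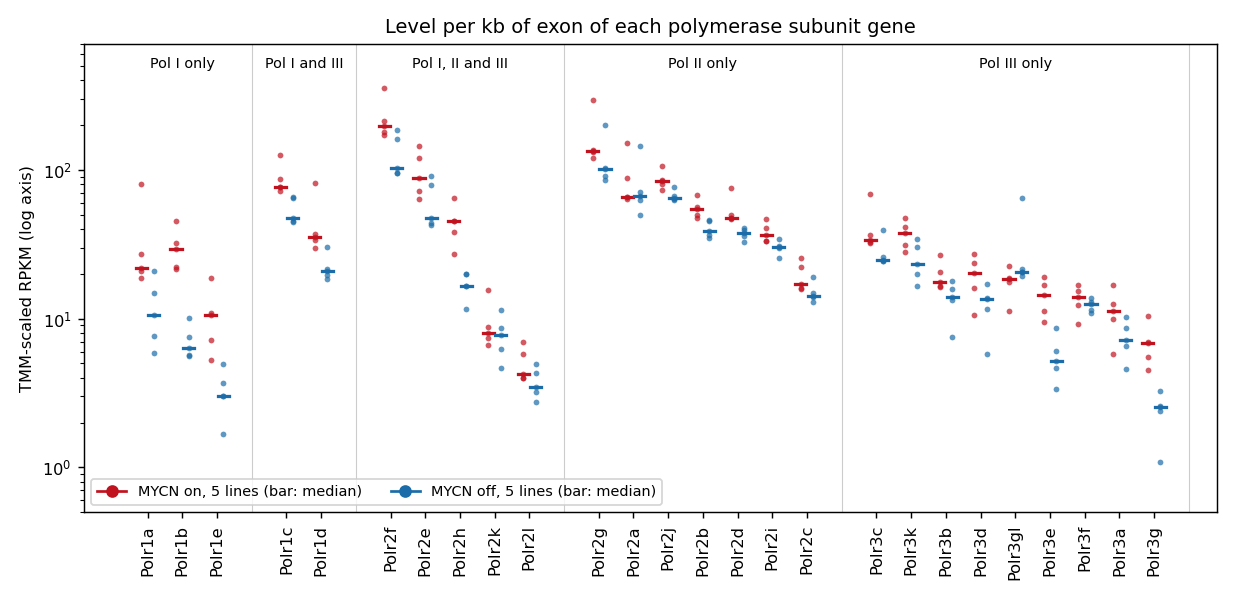
TMM-scaled RPKM (log axis) of 26 polymerase subunit genes by the enzymes they belong to, with MYCN on (red) left of MYCN off (blue), 1 point per cell line and a bar at the median. The medians of Polr1b lie apart, at 29.5 and 6.37, and those of Polr2a nearly coincide at 66.1 and 67.1.

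Promoter sequence was read for the members in the RefSeq table of build GRCm38.p6, which held 29 of the 37. The table gives 250 bases before and 50 after each annotated start. The motif CACGTG, the E-box bound by MYC-MAX dimers, which reads the same on both strands, was in a window of 5 members (17.2%): Rrn3, Polr2h, Polr3c, Polr3e and Polr3gl. It was in 8.09% of all 27025 genes in the table and in 11.8% of the 9762 genes tested here that the table holds. The variant CACGCG, searched with its reverse complement CGCGTG, was in 12 members (41.4%), against 10.5% of all genes and 21.0% of tested genes. CACGCG and its reverse complement can overlap each other. The motifs were searched after the expression values were known, and are a description of letters, not of binding. Rrn3 is shown because it alone had 2 E-boxes, Polr3c because it had both motifs before its start, the pair Polr3g and Polr3gl because they are alternative forms, and Polr1b because it rose most. Each sequence is the 250 bases before the start, 5′ to 3′, with CACGTG or CACGCG in capitals.
Polr1b, chr2:129100746-129100995, plus strand: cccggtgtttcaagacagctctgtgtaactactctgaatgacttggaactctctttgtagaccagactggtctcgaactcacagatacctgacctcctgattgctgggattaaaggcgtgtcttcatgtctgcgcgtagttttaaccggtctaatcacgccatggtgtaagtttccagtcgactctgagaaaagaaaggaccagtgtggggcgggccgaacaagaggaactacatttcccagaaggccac
Rrn3, chr16:13780449-13780698, plus strand: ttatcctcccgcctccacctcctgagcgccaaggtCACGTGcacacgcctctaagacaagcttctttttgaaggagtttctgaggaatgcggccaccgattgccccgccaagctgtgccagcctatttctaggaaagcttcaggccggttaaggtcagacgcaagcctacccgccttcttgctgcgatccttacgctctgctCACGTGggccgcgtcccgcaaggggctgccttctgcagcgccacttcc
Polr3c, chr3:96727440-96727689, minus strand: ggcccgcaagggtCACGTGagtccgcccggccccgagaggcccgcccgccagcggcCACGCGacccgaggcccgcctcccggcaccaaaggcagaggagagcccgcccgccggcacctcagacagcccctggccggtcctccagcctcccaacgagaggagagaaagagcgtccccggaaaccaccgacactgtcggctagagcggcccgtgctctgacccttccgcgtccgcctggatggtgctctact
Polr3g, chr13:81711014-81711263, minus strand: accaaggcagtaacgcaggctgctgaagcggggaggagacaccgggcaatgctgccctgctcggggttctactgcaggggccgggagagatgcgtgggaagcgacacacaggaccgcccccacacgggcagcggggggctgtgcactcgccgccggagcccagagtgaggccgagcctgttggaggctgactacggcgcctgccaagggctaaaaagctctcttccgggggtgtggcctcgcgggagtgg
Polr3gl, chr3:96594182-96594431, minus strand: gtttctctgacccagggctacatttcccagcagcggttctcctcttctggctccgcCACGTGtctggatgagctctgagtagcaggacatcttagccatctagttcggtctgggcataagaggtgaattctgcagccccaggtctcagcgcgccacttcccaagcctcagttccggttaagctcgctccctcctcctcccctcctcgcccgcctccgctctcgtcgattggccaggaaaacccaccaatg
Neither motif was found in this stretch of Polr1b or Polr3g, which rose 4.21-fold and 2.85-fold, though Polr3g had CACGCG with its first base 35 bases after the start. Polr3gl, which was not called, held an E-box 194 bases before its start. In Polr3e and Polr2h the E-box lay just after the start, with its first base 6 and 24 bases in.

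Other parts of the machinery gave a scale for these changes, with lists that were not chosen for how they moved but were drawn up with earlier results of these data known. Over all genes tested, 15.3% rose and 15.6% fell. Of 10 genes for polymerase assembly and nuclear import, 7 rose and 0 fell, with a median log2 change of 0.60. Ruvbl2 and Ruvbl1, the ATPases of the chaperone complex that builds polymerases, rose 2.72-fold (adjusted p = 0.003, edgeR) and 2.41-fold (0.0054). The count was 4 without G4314 and 4 without G9351, where calls over all genes in either direction dropped from 3973 to 1768 and 1729. Of 31 general factors of polymerase II, 9 rose and 0 fell, with a median of 0.21. Gtf2h1 and Gtf2h4, subunits of TFIIH, rose 1.59-fold (adjusted p = 0.00675, edgeR) and 1.8-fold (0.00973), and Tbp, the TATA-binding protein used by all 3 enzymes, had a log2 change of 0.18 (adjusted p = 0.322). Here the count was 3 without G4314 and 2 without G9351.

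Of 14 other polymerase III factors, 4 rose and 0 fell in edgeR, beside 15.3% and 15.6% of all genes tested. Their median log2 change was 0.15. In DESeq2, 4 were called higher and 1 lower. Ssb, which encodes the La protein that binds new polymerase III transcripts, rose 1.58-fold (adjusted p = 0.0167, edgeR), and Gtf3a, the factor specific to the smallest ribosomal RNA gene, rose 1.86-fold (0.015), though it shares 60.2% of its exon bases with Mtif3. Neither was called without G4314 or without G9351, where 0 of the 14 were. Maf1, the repressor of polymerase III, differed by -0.36 on the log2 scale (SE 0.17, adjusted p = 0.15). It was higher with MYCN on in 0 of 5 lines, with changes from -0.99 to -0.02. Tbp and Maf1 were named after their values were seen.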

How the data were processed

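Messenger RNA was isolated with oligo-dT beads and made into NEBNext Ultra libraries, per the labels' protocols, and reads were aligned with STAR 2.5.2a to mm9, per the submitters' processing notes. The deposited values are raw counts per gene, made with featureCounts 1.6.0 without strand, per the file headers. The recorded command sets nothing for multi-mapping or multi-overlapping reads, and the tool's default leaves these out. All headers name 1 sequencing run. Gene lengths are those of the authors' files.

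The members and lists were chosen with earlier results of these data known. Genes were filtered with filterByExpr (minimum count 10), which left 12835 genes with 93.9% to 99.9% of the counts, scaled with TMM, and tested with edgeR 4.0.16 in R 4.3.3 (quasi-likelihood F test, cell line as a block, threshold 0.05). Standard errors (SE) were derived from the F statistic, as the absolute log2 change over its root. Changes in single lines use log2 CPM, prior count 2. Alternatives used DESeq2 1.42.0, limma 3.58.1 and other scalings, filters and sets of lines. The lines pair the libraries: deviations of a line's 2 libraries correlated at 0.721 to 0.873, and at most 0.273 between lines. Each line and condition had 1 culture. With the line as a block, p-values weigh a change against its spread between lines, not against differences in level between lines. The noise of single cultures is part of that spread and cannot be told apart from it. Values of every library are printed for fixed genes and for the smallest p of each class. From the other lists the rule names up to 2 genes per direction. A member that the rule names is not reported here by name, but is in the counts and medians. Counts of the same design were simulated with the same dispersion for every gene (biological coefficient of variation 28.5%). In them the test found 98.5% of 66 genes changed 4-fold, 43.3% of 67 changed 2-fold and 2.99% of 67 changed 1.5-fold, among 12706 genes.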

Additional observations from a re-analysis of the deposited data

Results flagged for a closer look

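In 19 of the 115 sets of 5 lines examined, 1 line lay far from the other 4 (Dixon's test, which flags about 1 set in 20 by chance). The line was G9577 in 16 of them, the line with few neuroendocrine and many mesenchymal transcripts. The part of those marker levels in the values below was not tested.

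The change of Polr3g was 3.17 on the log2 scale in G9577, against 0.91 to 1.40 elsewhere, and the change of Polr3g minus that of Polr3gl was 5.04, against 0.95 to 1.94. The change of Taf1b was -0.14 in G9577, against 0.39 to 0.55.

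With MYCN on, G9577 was high for Polr2a (1024 CPM, other lines 426 to 597), Polr1a (488 CPM, others 115 to 166), Polr2f (185 CPM, others 88.9 to 110.4), Polr1c (165 CPM, others 93.7 to 112) and Polr1d (137 CPM, others 49.99 to 62.4). It was also high for Polr3c (122.5 CPM, others 57.7 to 65.4), Polr2d (76.2 CPM, others 47.1 to 50.7) and Polr2k (9.69 CPM, others 4.14 to 5.51). With MYCN off, G9577 was high for Polr2a (966 CPM, others 333 to 477), Ubtf (482 CPM, others 211 to 236), Polr3gl (92.2 CPM, others 27.5 to 30.8), Polr3c (70.7 CPM, others 43.7 to 46.3) and Polr1d (51.2 CPM, others 31.4 to 36.3).

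The line G9488 was high for Polr2g in both conditions, at 257 CPM with MYCN on (others 104.7 to 118) and 173 CPM with MYCN off (others 74.4 to 88.9). The line G9529 was high for Polr2j with MYCN off, at 45.1 CPM (others 36.8 to 38.96).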

How the results depend on the processing

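The count of members that rose was 20 to 23 under DESeq2, limma-voom, RLE scaling, library size alone, no filter and a minimum count of 30, and 11 to 23 with 1 line left out. Without the line as a block 4 rose (Polr1b, Polr2h, Polr3e and Taf1d), so 19 of the 23 calls rest on the paired design. This loss was not particular to the members. Over all 12835 genes tested, 3973 were called in either direction with the block and 274 without it. Directions under the scaling alternatives were those of the values reported for all 36 members. With 1 line left out the sign changed in Brf1, Polr3f and Taf1c, none of them called. The median log2 change of the polymerase III factors was -0.13 to 0.0013 with 1 line left out, and the positive value, 0.0013, was that without G9577; the cause was not tested. Simulated 1.5-fold changes were rarely found, but every simulated gene had the same dispersion, not its own. Among the members, rises below 1.5-fold were called, such as Polr2g at 1.40-fold (SE 0.11). The simulation thus does not give the power for a single member, and the part of depth alone was not tested. A member that was not called may still have changed, by an amount that its own SE limits.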

Other observations

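Of 21 genes for elongation and pausing of polymerase II, 3 rose and 3 fell with MYCN on, with a median log2 change of 0.05. Over all genes tested 15.3% rose and 15.6% fell, so these counts are near the background. Ell2, a subunit of the super elongation complex, fell to 17.5 ± 8.88 CPM with MYCN on, against 41.8 ± 21.9 CPM in the MYCN off libraries (SD, n = 5 each). Its log2 change was -1.26 with an SE of 0.19 (adjusted p = 0.00583 in edgeR). Hexim1, which holds the elongation kinase P-TEFb inactive, fell by 0.82 on the log2 scale (SE 0.14, adjusted p = 0.00804). Both were called lower with any 1 line left out. Cdc73, of the PAF complex, rose 1.55-fold (adjusted p = 0.0197), and Tcea1, which rescues stalled polymerase, rose 1.68-fold (0.0311). Neither was called without G4314 or without G9351, and Tcea1 not without G9488. Without G4314 or G9351, 0 genes of the list were called higher in edgeR, while calls over all genes dropped from 3973 to 1768 and 1729.

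Of 5 genes of mitochondrial transcription, which has a polymerase of its own, 2 rose and 0 fell, beside 15.3% and 15.6% of all genes tested. Tefm, the mitochondrial elongation factor, rose 1.93-fold (adjusted p = 0.0103, edgeR) and was called with any 1 line left out. Tfam, which packages and starts transcription of mitochondrial DNA, rose 1.48-fold (0.0337) and was not called without G4314, G9351 or G9488 (adjusted p up to 0.121). The polymerase gene itself, Polrmt, named after its values were seen, differed by 0.37 on the log2 scale (SE 0.16, adjusted p = 0.113).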
